A study of Arabidopsis thaliana with 12 samples.

Results

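The comparison set ire1a ire1b double mutant seedlings against wild-type seedlings of Arabidopsis thaliana after mock treatment, that is, without added stress to the endoplasmic reticulum (ER). It used 6 of the 12 arrays of the study, 3 ire1a ire1b and 3 wild type, chosen by the genotype and treatment in the sample titles. The question was what differs in the transcript population when both IRE1 sensors are mutated and the ER is not challenged. All seedlings were Columbia (Col-0), 10 days old and grown at 22 °C. Transcription was inhibited in every group, the wild-type mock group included, with 75 µM actinomycin D added 2 h before the treatment. The treatment lasted 5 h and was tunicamycin at 5 mg per litre, which blocks N-glycosylation and so causes ER stress, or its solvent DMSO as the mock. The 4 groups were ire1a ire1b under mock, ire1a ire1b under tunicamycin, wild type under mock and wild type under tunicamycin, each with 3 arrays.

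IRE1 is a kinase and ribonuclease in the ER membrane. When unfolded protein accumulates in the ER, plant IRE1 splices the mRNA of the transcription factor BZIP60, and it also degrades mRNAs of proteins made at the ER, a process known as regulated IRE1-dependent decay. Arabidopsis has the related genes IRE1A and IRE1B, and the double mutant is the usual model of their loss. Because new transcription was inhibited in both genotypes for the whole treatment, a difference between mock groups can come from before the inhibitor or from unequal loss of transcripts after it. How complete the inhibition was is not measured here, so it can also come from transcription that went on. These sources cannot be told apart here.

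The labels name the mutations but not the alleles, and neither IRE1A nor IRE1B had a probe set paired with that gene alone, so the loss of their transcripts was not checked. Whether the 3 arrays of each group stand for separate cultures is not stated, so the p-values cover only the variation among these arrays, and that variation may be technical. RNA was from whole seedlings, in which fewer cells of a type and less RNA per cell cannot be told apart. The 5 tested nuclear photosynthesis genes had signals of 2920 to 28495 on the 6 mock arrays. Of 11 root markers only EXPA7, an expansin of root hair cells, had a probe set paired with it alone, at 68.8 to 98.4, and it was not tested. No seed storage gene of the list of 9 had a named probe set.

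Quality measures of the mock arrays overlapped between the genotypes. The mean log2 ratio of 3′ to 5′ control probe sets, a measure of RNA integrity, was 2.25, 2.23 and 2.12 on the ire1a ire1b arrays, against 2.21, 2.39 and 2.42 on the wild-type arrays (exact permutation test, two-sided p = 0.3, where 3 against 3 arrays cannot go below 0.1). The median within-group standard deviation of log2 signal was 0.189 for ire1a ire1b and 0.159 for wild type. The median log2 difference over all tested probe sets was -0.02, so values below are close to differences from the bulk of the array.

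Few probe sets passed the test for a genotype difference under mock with 3 arrays per group. Of 13647 probe sets tested in limma, 22 were higher in ire1a ire1b (0.161%) and 44 were lower (0.322%) at a Benjamini-Hochberg adjusted p under 0.05, together 66 (0.484%). Another scaling, with each array centred on its median, gave 22 higher and 28 lower, of which 21 and 27 were among those above. At an unadjusted p under 0.05 there were 367 higher (2.69%) and 735 lower (5.39%), together 1102 (8.08%). Of the 66, 15 were higher and 24 were lower by 2-fold or more, and 4 and 1 by 4-fold or more. The 3 ire1a ire1b arrays did not overlap with the 3 wild-type arrays for any of the 66. Over all tested probe sets the ire1a ire1b arrays lay above the wild-type arrays without overlap in 5.32% and below in 8.39%. The 66 were selected by their difference on these same mock arrays, which favours such separation. The largest named genes were also required to show it. Separation on these arrays, here or for single genes below, is therefore not separate support.

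A single gene was named for 14 of the 22 higher probe sets and 23 of the 44 lower ones; the others had several genes listed or none. The call of 13 higher and 12 lower probe sets held when any one of the 12 arrays was left out, and 9 and 32 lost it at least once. Where the call of a gene named below was lost, the highest adjusted p over these 12 fits is given with the array left out in that fit. Genes below were ordered by their known roles after their values were seen. Except for the gene lists, the tested members of their families were not counted, so family counts among the calls come without a share.

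**Figure D1:**
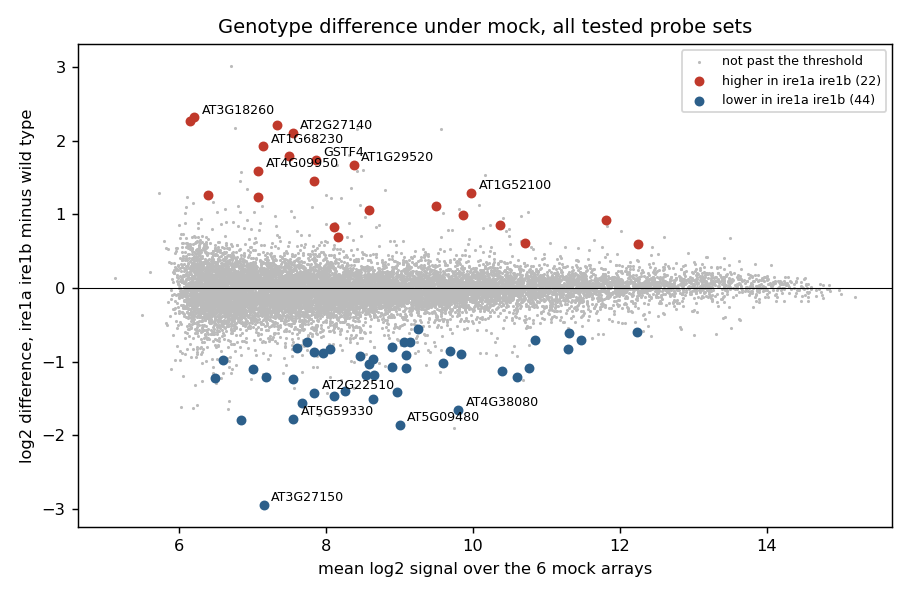
Log2 difference (ire1a ire1b minus wild type) under mock on the vertical axis against mean log2 signal of the 6 mock arrays on the horizontal axis, 1 point per tested probe set (13647). Coloured points are the 22 probe sets that were higher and the 44 that were lower at an adjusted p under 0.05; most tested probe sets lie close to 0.

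Among the higher genes were 2 of a family of membrane-shaping ER proteins. AT3G18260, a reticulon-like gene of the family that curves ER tubules, had signals of 172, 156 and 168 on the ire1a ire1b arrays, against 37.8, 36.1 and 26.6 on the wild-type arrays. The difference was 2.32 ± 0.21 (SE) on the log2 scale, 4.99-fold, with an adjusted p of 0.000156; the wild-type signals lay below the filter value of 68.7, where MAS5 signals are least precise, so the size is uncertain. AT1G68230, also reticulon-like, had 294, 262 and 274 in ire1a ire1b, against 93.3, 73.8 and 55.9 in wild type. All 3 mutant arrays were again far above all 3 wild-type arrays, with a difference of 1.92 ± 0.24 (adjusted p = 0.00232). Of 8 reticulon-like genes tested, these 2 were higher and 0 lower, the median difference was 0.13, and the next by p, AT3G54120, differed by 0.45 (adjusted p = 0.579).

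A chaperone gene and a pair of redox enzyme genes were also higher. AT2G27140, of the HSP20-like small chaperones, had 390.4, 399 and 381 in ire1a ire1b, against 110.0, 101 and 66.1 in wild type. Its difference of 2.11 ± 0.18 was 4.33-fold (adjusted p = 8.27e-05), and the mutant arrays agreed closely with each other. GSTF4, a glutathione S-transferase of the phi class, had 387, 436 and 458, against 112, 129 and 143 in wild type, a difference of 1.74 ± 0.22 (adjusted p = 0.00241). MSRB6, a methionine sulfoxide reductase that repairs oxidised methionine, had 1380, 1356 and 1202, against 667, 541 and 798 in wild type. It was brighter on every mutant array, with a difference of 0.99 ± 0.15 (adjusted p = 0.00629). MSRB5, its neighbour on the chromosome and a member of the same family, went the other way: 2088, 1907 and 2165 in ire1a ire1b, against 3177, 3090 and 3083 in wild type. Its difference was -0.60 ± 0.11 (adjusted p = 0.0231), and it was singled out after its values were seen; without wild-type mock array 1 its adjusted p was 0.129.

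Both AWPM-19-like genes among the calls, of a plant membrane protein family named after a wheat protein, were higher. AT1G29520 had 550.2, 541 and 699.9 in ire1a ire1b, against 185, 186 and 187 in wild type, and AT5G18970 had 549.8, 585 and 530.0, against 256, 276 and 268. The differences were 1.67 ± 0.18 (adjusted p = 0.000517) and 1.06 ± 0.13 (adjusted p = 0.00227), and the wild-type arrays varied little in either gene. AT4G09950, an AIG1-like GTPase, had 221, 233 and 251, against 59.6, 75.6 and 105 in wild type, a difference of 1.59 ± 0.27 (adjusted p = 0.0159). AT5G48060, a protein with C2 domains, which bind membranes, had 122, 175 and 102, against 41.2, 71.0 and 54.3, a difference of 1.26 ± 0.24 (adjusted p = 0.0353). Without wild-type mock array 1 the adjusted p of AT4G09950 was 0.0958 and that of AT5G48060 was 0.177.

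The other named higher genes encode proteins of secreted families or lectins. AT1G52100, a jacalin-like lectin, had 1607, 1843 and 1330 in ire1a ire1b, against 596, 823 and 545 in wild type, a difference of 1.29 ± 0.17 (adjusted p = 0.00311). AT3G05620, of the pectin methylesterase family that modifies wall pectin, had 199, 222 and 202, against 101, 81.6 and 82.1, a difference of 1.24 ± 0.17 (adjusted p = 0.00388). Both were higher on every mutant array. AT5G55450, of the lipid-transfer protein family, differed by 0.86 ± 0.15 (adjusted p = 0.0211), AT4G33490, an aspartyl protease, by 0.69 ± 0.13 (adjusted p = 0.0304) and AT2G43550, a defensin-like peptide gene, by 0.61 ± 0.12 (adjusted p = 0.04). These last 3 calls did not hold in every fit that left out an array: the highest adjusted p was 0.122 for AT5G55450 (leaving out ire1a ire1b mock array 1), 0.159 for AT4G33490 (wild-type mock array 3) and 0.232 for AT2G43550 (wild-type mock array 1).

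Among probe sets with no gene listed, 259022_at had the smallest p of the comparison. It had 331, 360 and 349 in ire1a ire1b, against 66.4, 72.4 and 86.5 in wild type, a difference of 2.21 ± 0.14 (adjusted p = 5.49e-06). The other 4 largest were 266376_at at 2.27 ± 0.31, 245725_at at 1.79 ± 0.19, 261256_at at 1.45 ± 0.13 and 257093_at at 1.12 ± 0.18, all higher. When an array was left out, the adjusted p of 257093_at rose to at most 0.056 (wild-type mock array 3). The mean wild-type signal of 266376_at (33.1) lay below the filter value, so its size is uncertain.

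The named gene with the largest difference among the calls was lower in ire1a ire1b. AT3G27150, an F-box protein gene with kelch repeats known as the target of a microRNA induced by phosphate starvation, had 54.0, 32.4 and 77.0 in ire1a ire1b, against 328, 476 and 393 in wild type. Its difference was -2.94 ± 0.32, 7.70-fold (adjusted p = 0.000597). The wild-type arrays were all bright, whereas 2 of the 3 mutant arrays lay below the filter value, which leaves the size uncertain.

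Hydroxyproline-rich glycoproteins, a class of cell wall proteins, were 3 of the 20 lower genes named by rule. How many genes of this class, or of the lipid-transfer and lipase families that follow, were tested was not counted. The share called is therefore not known. AT5G09480 had 257, 268 and 287 in ire1a ire1b, against 981, 1411 and 678 in wild type, a difference of -1.86 ± 0.26 (adjusted p = 0.0048). AT4G38080 had 404, 569 and 557, against 1397, 2185 and 1301 in wild type, a difference of -1.65 ± 0.25 (adjusted p = 0.00659). AT2G22510 had 117, 138 and 171, against 397, 478 and 280.4, a difference of -1.43 ± 0.21 (adjusted p = 0.00624). In all of them wild-type array 2 was the brightest and the groups were well separated.

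Another 3 were genes of the lipid-transfer family. Lipid-transfer proteins are small secreted proteins that bind lipids at the cell surface. AT5G59330 had 94.4, 160 and 69.2 in ire1a ire1b, against 360, 388 and 301 in wild type, a difference of -1.78 ± 0.25 (adjusted p = 0.00537). AT3G58550 differed by -1.09 ± 0.21 (adjusted p = 0.035) and AT2G18370 by -1.02 ± 0.19 (adjusted p = 0.0322). The direction of the family was not uniform, since AT5G55450 was higher.

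A further 3 were GDSL-type lipase genes, a family in which some members build cutin or suberin. AT2G23540 had 297, 247 and 387 in ire1a ire1b, against 761, 877 and 809 in wild type, a difference of -1.42 ± 0.18 (adjusted p = 0.00241). AT5G37690 had 177, 239 and 162, against 537, 604 and 381, a difference of -1.39 ± 0.21 (adjusted p = 0.00626). AT1G74460 had 646, 536 and 868, against 1235, 1140 and 1387, a difference of -0.90 ± 0.16 (adjusted p = 0.0211). FACT, the caffeoyl transferase of suberin-associated root waxes, had 201, 145 and 210.0, against 330.2, 325 and 359 in wild type. It differed by -0.88 ± 0.16 (adjusted p = 0.0231), and every wild-type array was above every mutant array. Without wild-type mock array 3 the adjusted p was 0.131 for FACT and 0.126 for AT1G74460.

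Among the lower genes were 2 of the Ole e 1-like family, small secreted proteins first known from olive pollen. AT3G16670 had 770, 1198 and 1147 in ire1a ire1b, against 1862, 3259 and 2132 in wild type, a difference of -1.20 ± 0.21 (adjusted p = 0.0231). AT4G17215 had 165, 139 and 139, against 261, 251 and 268, a difference of -0.82 ± 0.16 (adjusted p = 0.035). The single called class III peroxidase, AT3G01190, of the secreted enzymes that cross-link wall polymers, had 385, 521 and 419, against 761, 646 and 774. It differed by -0.73 ± 0.14 (adjusted p = 0.0424).

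The remaining named lower genes were of mixed function. DI21, a drought-induced gene, had 1703, 2018 and 1958 in ire1a ire1b, against 3249, 3483 and 3282 in wild type. The arrays of each genotype lay close together, and the difference was -0.82 ± 0.12 (adjusted p = 0.00579). HMT-1, a homocysteine S-methyltransferase of methionine synthesis, had 357, 480.3 and 410, against 655, 684 and 718, a difference of -0.73 ± 0.13 (adjusted p = 0.0238). AT4G28940, of the phosphorylase superfamily, had 268, 262 and 271, against 657, 639 and 391, a difference of -1.04 ± 0.19 (adjusted p = 0.0336). AT2G47200 differed by -1.20 ± 0.19, AT4G31330 by -1.10 ± 0.21, AT5G57785 by -0.87 ± 0.17 and AT1G12845 by -0.73 ± 0.14, with adjusted p-values of 0.0106, 0.035, 0.04 and 0.0336 in that order. The 5 largest lower probe sets with no gene listed were 259221_s_at at -1.79 ± 0.31, 247765_at at -1.57 ± 0.22, 249061_at at -1.51 ± 0.24, 267457_at at -1.47 ± 0.27 and 249734_at at -1.22 ± 0.24. When an array was left out, the highest adjusted p was 0.127 for 259221_s_at and 0.15 for 267457_at (both wild-type mock array 3). It was 0.0667 for 249061_at (wild-type mock array 2) and 0.189 for 249734_at (wild-type mock array 1). Mean ire1a ire1b signals of 259221_s_at (62.5) and 249734_at (59.6) lay below the filter value, so their sizes are uncertain.

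**Figure D2:**
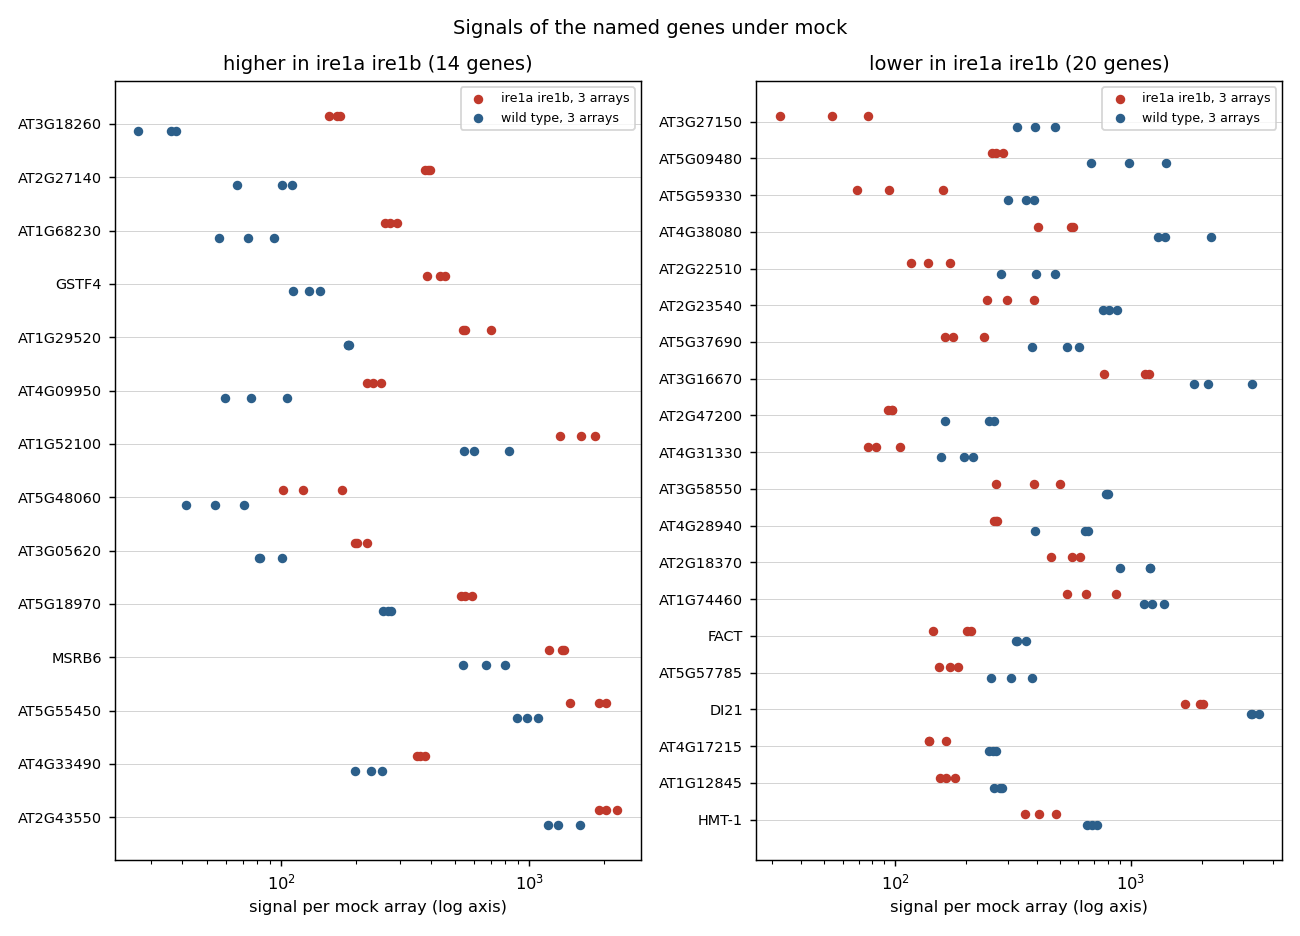
Signal per mock array (horizontal log axis) of the 14 higher and 20 lower named genes (1 row each, ire1a ire1b in red above wild type in blue); points are single arrays, 3 per group. In AT3G18260 the ire1a ire1b arrays lie at 156 to 172 and the wild-type arrays at 26.6 to 37.8, and in AT3G27150 the ire1a ire1b arrays lie at 32.4 to 77.0 and the wild-type arrays at 328 to 476.

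The 32 lower calls that were lost at least once were lost in 3 to 10 of the 12 fits, and 20 of them in a fit without a tunicamycin array. Leaving out such an array changes the mock comparison only through the shared spread, as the filter was kept from all 12 arrays. Leaving out wild-type mock array 1 raised the adjusted p to 0.168 for AT1G12845, 0.165 for AT4G17215, 0.232 for AT5G57785, 0.174 for AT2G18370, 0.189 for AT4G28940, 0.165 for AT3G58550, 0.0829 for AT2G47200 and 0.232 for AT3G01190. Leaving out wild-type mock array 3 raised it to 0.132 for HMT-1 and 0.181 for AT4G31330, and leaving out ire1a ire1b mock array 1 raised it to 0.114 for AT3G16670.

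The tunicamycin arrays give the genotype comparison in other samples. Both comparisons share the estimate of spread of each probe set. Deviations of same-numbered mock and tunicamycin arrays correlated at 0.112, 0.444 and 0.507 in ire1a ire1b and at 0.131, 0.017 and 0.116 in wild type. The agreement below is therefore not fully independent. Under tunicamycin 911 probe sets were higher in ire1a ire1b (6.68%) and 413 lower (3.03%), together 1324 (9.7%). All 22 probe sets that were higher under mock had a positive difference under tunicamycin as well, and 21 of them passed the test there (95.5% of the 22 and 2.31% of the 911). Their tunicamycin arrays did not overlap between genotypes for any of the 22, against 11.5% of all tested probe sets in that direction. Their median difference was 1.28 under mock and 1.40 under tunicamycin. Their median signals were 384 in ire1a ire1b under mock, against 162 in wild type under mock, and 399 in ire1a ire1b under tunicamycin, against 160 in wild type under tunicamycin. AT2G27140 had 374, 377 and 427 in ire1a ire1b under tunicamycin, against 93.2, 103 and 102 in wild type (difference 1.98, adjusted p = 1.04e-05). AT1G29520 differed by 1.86 (adjusted p = 1.6e-05) and GSTF4 by 1.64 (adjusted p = 0.000274). The exception was AT5G48060, which differed by 0.51 under tunicamycin (adjusted p = 0.226).

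Of the 44 probe sets that were lower under mock, 41 had a negative difference under tunicamycin and 23 passed the test in the same direction (52.3% of the 44 and 5.57% of the 413). The ire1a ire1b arrays lay below the wild-type arrays without overlap under tunicamycin in 34 of them, against 16.3% of all tested probe sets, and above them in 1. Their median difference was -1.05 under mock and -0.62 under tunicamycin. The 44 were selected by their mock difference, which alone can make the tunicamycin median smaller in size. Their median signals were 271 in ire1a ire1b under mock, against 620 in wild type under mock, and 277 in ire1a ire1b under tunicamycin, against 477 in wild type under tunicamycin. AT3G27150 differed as much there, with 32.3, 60.6 and 68.7 in ire1a ire1b, against 388, 337 and 463 in wild type (difference -2.94, adjusted p = 4.81e-05). DI21 had 1784, 1803 and 2108 in ire1a ire1b, against 3529, 3443 and 4518 in wild type (difference -1.01, adjusted p = 9.88e-05). AT2G23540 differed by -0.57 (adjusted p = 0.0624), FACT by -0.44 (adjusted p = 0.101) and AT3G01190 by -0.35 (adjusted p = 0.161), none of which passed.

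**Figure D3:**
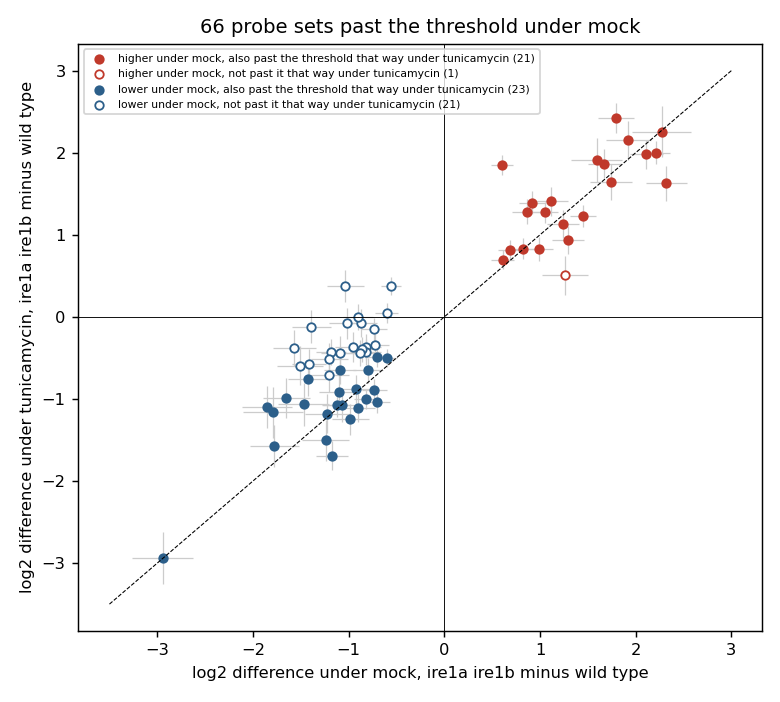
Log2 difference (ire1a ire1b minus wild type) under tunicamycin against the same under mock for the 66 probe sets called under mock, with SE as grey lines; filled points also passed in the same direction under tunicamycin, and the dashed line marks equal differences. All 22 higher ones lie above 0 on both axes, and 41 of the 44 lower ones lie below 0 on both.

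The genotype difference itself was tested for a change between treatments. This interaction, the difference under tunicamycin minus that under mock, passed for 418 of the 13647 probe sets (3.06%), 406 above 0 (2.98%) and 12 below 0 (0.0879%). It passed for 5 of the 66, all above 0. The 66 were selected by the mock difference that the interaction subtracts, so selection itself favours values above 0 for lower calls. Of the 44 lower calls, 36 had an interaction above 0, and the part of selection in this was not tested. The GDSL lipase AT5G37690 had 216, 235 and 184 in ire1a ire1b under tunicamycin, against 184, 249.7 and 259 in wild type, so that its mock difference of -1.39 was -0.12 there (interaction 1.27 ± 0.29, adjusted p = 0.0282). The lipase AT1G74460 had 638, 744 and 724, against 678, 756 and 676, a difference of -0.00 (interaction 0.90 ± 0.22, adjusted p = 0.0427). AT4G28940 had 307, 314 and 219, against 210.3, 203 and 226, a difference of 0.37 (interaction 1.41 ± 0.27, adjusted p = 0.0103). In each of these 3 genes the genotypes overlapped under tunicamycin.

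The other 2 were probe sets that fall outside the naming rule and were chosen after their values were seen. AT2G12400 had 512, 543 and 451 in ire1a ire1b under mock, against 743, 724 and 742 in wild type (difference -0.56 ± 0.11, adjusted p = 0.0402). Under tunicamycin it had 555, 555 and 579.7 in ire1a ire1b, against 403, 463 and 435 in wild type (difference 0.38, adjusted p = 0.0432), so it was lower under mock and higher under tunicamycin (interaction 0.94 ± 0.15, adjusted p = 0.00363). 263153_s_at, with no gene listed, had 6180.3, 6185 and 5613 in ire1a ire1b under mock, against 3590.0, 4435 and 3843 in wild type, a difference of 0.60 ± 0.12 (adjusted p = 0.0413). Under tunicamycin it had 6036, 4709.7 and 6057 in ire1a ire1b, against 1458, 1481 and 1712 in wild type, a difference of 1.85 (adjusted p = 6.11e-07; interaction 1.24 ± 0.17, adjusted p = 0.00109). The ire1a ire1b arrays spanned 4709.7 to 6185 over both treatments, and the wild-type arrays under tunicamycin lay below those under mock without overlap. Without wild-type mock array 1 the mock call of both was lost, with adjusted p-values of 0.189 for AT2G12400 and 0.241 for 263153_s_at.

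**Figure D4:**
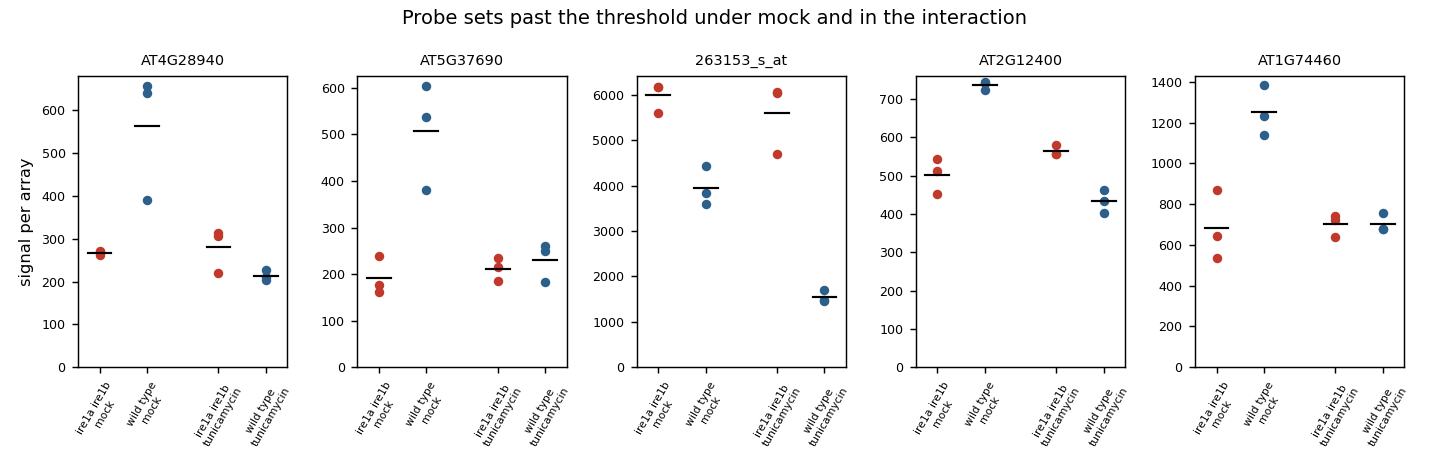
Signal per array (linear axis from 0) for the 5 probe sets called under mock that passed in the interaction, with ire1a ire1b left of wild type within each treatment; points are single arrays and bars are group means. AT2G12400 is at 451 to 543 in ire1a ire1b and 724 to 743 in wild type under mock, and at 555 to 579.7 in ire1a ire1b and 403 to 463 in wild type under tunicamycin.

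The genes that carry out the unfolded protein response did not pass the test under mock. Of 12 sensors and transcription factors, 5 were tested; 0 passed, and 0 had an unadjusted p under 0.05. BZIP60, whose mRNA IRE1 splices, had 1015, 771 and 1005 in ire1a ire1b, against 928, 904 and 687 in wild type, a difference of 0.15 ± 0.17 (adjusted p = 0.889); splicing was not measured. BZIP28, the membrane-bound factor of the other arm, differed by -0.37 ± 0.19 (adjusted p = 0.681) and BZIP17 by 0.27 ± 0.20 (adjusted p = 0.809). Of 36 ER folding and degradation genes, 9 were tested and 0 passed, with 0 at an unadjusted p under 0.05. Their differences ran from -0.22 for AT5G07340, a calnexin gene, to 0.08 for CRT1b, a calreticulin, with a median of -0.00 (0.05 with arrays centred on their median). BIP1, BIP2 and BIP3, the genes of the main ER chaperone, had no probe set named for them alone.

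ER body and vacuolar protease genes were measured with 9 members and 0 passed under mock, with 1 at an unadjusted p under 0.05. PYK10, a beta-glucosidase stored in ER bodies, had 22742, 24040.0 and 22534 in ire1a ire1b, against 23758, 21963 and 23271 in wild type, a difference of 0.01 ± 0.07 (adjusted p = 0.989). NAI2, which is needed to form ER bodies, had 6497, 6700.0 and 5988, against 4651, 4640 and 4776. The arrays did not overlap, but the difference of 0.45 ± 0.10 did not pass (adjusted p = 0.108). GAMMA-VPE, a vacuolar processing enzyme, differed by -0.32 and BETA-VPE by -0.34.

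Gene lists of secreted and wall proteins gave 1 call. At an unadjusted p under 0.05, 2.69% of all tested probe sets were higher and 5.39% lower. Of 35 class III peroxidases, 0 were higher and 1 was lower (4 and 8 at an unadjusted p under 0.05), with a median of -0.10; AT5G64110 differed by 1.02 (adjusted p = 0.0949), AT5G06730 by 1.12 (adjusted p = 0.161) and AT2G18980 by -0.83 (adjusted p = 0.209). Of 13 xyloglucan transglucosylases and expansins, which loosen walls, 0 passed (2 higher and 3 lower at an unadjusted p under 0.05), with a median of -0.03 (0.01 with arrays centred on their median); XTH19 differed by -0.73 (adjusted p = 0.209) and EXLB1 by -1.06 (adjusted p = 0.235). Of 9 secreted defence genes 0 passed (2 higher and 1 lower at an unadjusted p under 0.05), with a median of 0.20. PDF2.1, a defensin, had 241, 97.7 and 283 in ire1a ire1b, against 94.6, 52.8 and 63.9 in wild type, a difference of 1.46 ± 0.38 (adjusted p = 0.186).

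Stress lists also gave no call, but most of their genes were not tested. Tested were 4 of 23 abscisic acid, cold and drought genes, 6 of 18 low-oxygen genes and 4 of 27 oxidative stress genes. Of the nuclear photosynthesis genes 5 of 36 were tested. All 4 abscisic acid, cold and drought genes tested had differences below 0 and an unadjusted p under 0.05, with a median of -0.60, but the number with such a p was 1 without ire1a ire1b mock array 1 or wild-type mock array 2, 2 without mock array 3 of either genotype, and 2 with arrays centred on their median or without the intensity trend; COR15A, a cold-regulated chloroplast protein gene, differed by -1.16 ± 0.41 (adjusted p = 0.453) and LTI30, a dehydrin gene, by -0.44. All 6 low-oxygen genes had differences below 0, with a median of -0.68, and 0 had an unadjusted p under 0.05. The ire1a ire1b arrays differed widely in them: AT5G10040 had 172, 1713 and 439 on ire1a ire1b arrays 1, 2 and 3, against 986, 1517 and 934 in wild type (difference -1.14 ± 0.60, adjusted p = 0.681). Array 1 was far below the wild-type arrays, array 3 was below them and array 2 was above them. The median was -0.23 without ire1a ire1b mock array 1, -1.31 with 2 of the 6 lower without array 2, and -0.44 without array 3. Of 5 nuclear photosynthesis genes, 0 passed (2 lower at an unadjusted p under 0.05), with a median of -0.09. At such a p, 2.69% of all tested probe sets were higher and 5.39% lower. Of 4 oxidative stress genes 0 passed (0 at an unadjusted p under 0.05), with a median of -0.03, and the 3 reference genes had a median of -0.01.

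**Figure D5:**
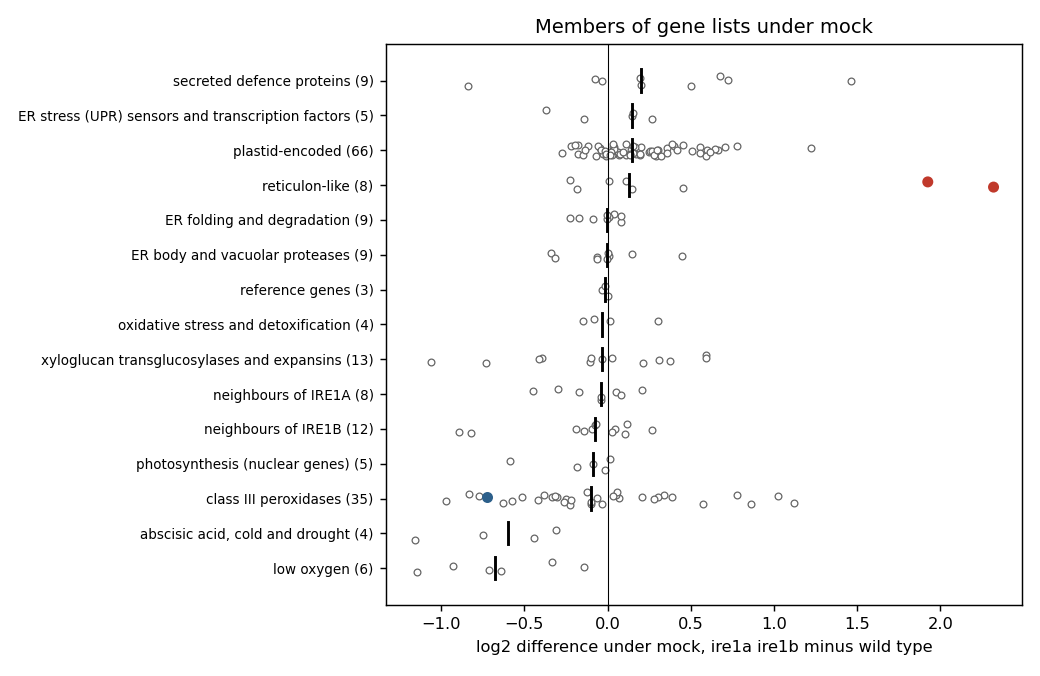
Log2 difference (ire1a ire1b minus wild type) under mock for each tested member of the lists with 3 or more tested members. Each point is a gene, filled where it passed an adjusted p under 0.05, and the black bar is the list's median. The filled points are the reticulon-like genes AT3G18260 and AT1G68230 and the peroxidase AT3G01190.

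No named gene tested near the mutated loci passed. Probe sets with several genes or none listed, 8 of the 22 higher and 21 of the 44 lower calls among them, were not placed and may lie there. Of the 50 nearest genes to IRE1A 8 were tested, and of the 50 nearest to IRE1B 12 were tested, with 1 and 2 at an unadjusted p under 0.05, all below 0, with medians of -0.04 and -0.07. Over all tested probe sets, 2.69% were higher and 5.39% lower at such a p. The nearest named gene that passed was AT2G18370 for IRE1A, 111 genes away in the order of the RefSeq table, and AT5G18970 for IRE1B, 615 genes away.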

How the data were processed

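RNA of 12 seedling samples was hybridised to 1-colour arrays. The deposited values are linear intensity per probe set (called signal), made by the authors with MAS5 per the submitters' processing notes; its version and settings were not given in these sources. MAS5 scales every array to a common level, so a change shared by most transcripts would not be seen. Genes were named from the platform annotation, updated through RefSeq (TAIR10.1): of 22746 probe sets left without 64 controls, 13513 had 1 gene, 503 several and 8730 none listed, and 13436 matched. Probe sets without 1 gene were tested but not named.

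Log2 signals were not normalized further. Probe sets with a mean log2 signal above the 40th percentile (log2 6.10, signal 68.7) entered a limma 3.58.1 model (R 4.3.3; eBayes with intensity trend) of all 12 arrays with 1 mean per group, giving 13647 tests per comparison, adjusted by Benjamini-Hochberg. Folds are ratios from this model, and errors are its SE. The fit was tested on simulated data with known differences. It recovered 78 of 100 log2 differences of 1 and 100 of 100 log2 differences of 2, and it called 5 unchanged probe sets. The simulated arrays were independent of each other, so the simulation does not cover correlated arrays. A few whole-array values were compared by exact permutation tests. Array number limits the precision.

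The genes named are the up to 20 largest higher and 20 largest lower single-gene probe sets past the threshold without overlap, up to 4 per gene list by p, the ER genes of interest, and the 5 largest unlisted probe sets each way; 14 higher and 20 lower genes qualified. The comparison and lists were chosen with earlier results of these data known. Jasmonate, salicylate, phenylpropanoid, phosphate, sugar starvation, root and seed lists had no tested gene; the clock, iron, auxin and ribosomal protein lists had 1, and heat shock, glucosinolate and short-lived transcript lists had 2, with no call. Alternatives were the samples in the fit, pairing by replicate number, pseudocount, floor, filter, scaling, trend, array weights and leaving out each array. No sequence or coordinate was used; the RefSeq table gave only the order of genes along the chromosomes.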

Additional observations from a re-analysis of the deposited data

Results flagged for a closer look

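No outlier test was applied to single samples, since each group had only 3 arrays. For 12 of the probe sets called under mock or named by rule, the genotype difference differed between tunicamycin and mock by the interaction test (limma, Benjamini-Hochberg adjusted p under 0.05). All 12 interactions were above 0, as were 406 of the 418 over all probe sets. Of those called under mock, the interaction was 1.24 for 263153_s_at, 0.94 for AT2G12400, 0.90 for AT1G74460, 1.41 for AT4G28940 and 1.27 for AT5G37690. These were selected by the mock difference that the interaction subtracts.

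The other 7 did not pass under mock. GAMMA-VPE had an interaction of 2.74 (adjusted p = 0.00061), ChiC, a chitinase gene, 2.31 (adjusted p = 0.00555), NAI2 1.56 (adjusted p = 7.32e-05) and PYK10 1.28 (adjusted p = 1.3e-05). The peroxidase AT2G18980 had 1.32 (adjusted p = 0.0361), the cathepsin B-like protease AT1G02305 had 1.18 (adjusted p = 0.000605), and EXGT-A3, a xyloglucan transglucosylase, had 1.05 (adjusted p = 0.00353). List members outside the naming rule are not counted here. Some of them passed as well, such as OSM34 of the secreted defence list at 1.75 (adjusted p = 0.00302).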

How the results depend on the processing

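None of the 66 called probe sets changed sign under any alternative run. Their mock groups did not overlap, so most alternatives could not change the sign. These include leaving out or weighting arrays, the pseudocount, the floor, the filter and the trend. Of the genes named or listed but not called, at least 14 changed sign. Those 14 had differences of at most 0.23 in size. Not every list member was in this count, and others changed sign as well. The medians of 8 of the 15 gene lists also changed sign. These medians, with their range over the alternatives, were -0.01 (-0.07 to 0.04) for ER body genes, -0.00 (-0.08 to 0.05) for ER folding, 0.15 (-0.04 to 0.20) for ER stress sensors and factors, -0.04 (-0.08 to 0.01) and -0.07 (-0.14 to 0.05) for the neighbours of IRE1A and IRE1B, -0.03 (-0.19 to 0.30) for oxidative stress, -0.01 (-0.06 to 0.06) for reference genes and -0.03 (-0.11 to 0.10) for xyloglucan transglucosylases and expansins, so they have no settled direction. The low-oxygen median was -1.27 with 4 of 6 lower under array weights. The number of probe sets higher in ire1a ire1b under mock (22) was 14 with a 60th percentile filter and 309 with array weights, and 15 to 33 when an array was left out. The number lower (44) was 22 with only the 6 mock arrays, 29 without a filter, 28 with arrays centred on their median, 27 without the intensity trend and 598 with array weights, and 15 to 70 when an array was left out. The weights were 5.79 for ire1a ire1b mock array 1 against 0.473 and 0.561 for arrays 2 and 3. The lowest count of lower probe sets came without wild-type mock array 2, and counts of 16 came without wild-type mock array 1 or 3 and 19 without ire1a ire1b mock array 1; the cause was not tested. Members of the gene lists past the threshold (3) numbered 5 with only the mock arrays, 2 without a filter, with median-centred or quantile-normalized arrays or without the trend, 1 with the 60th percentile filter and 43 with array weights, and 2 to 6 when an array was left out. Probe sets called the same way under mock and tunicamycin (44) numbered 276 with array weights and 25 to 61 when an array was left out. Those called under mock that also passed in the interaction (5) numbered 3 without a filter, 2 with quantile normalization, 1 without the trend and 140 with array weights, and 0 to 15 when an array was left out. The 3′ to 5′ difference of -0.14 was -0.20 to -0.10 when an array was left out.

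With the replicate number as a block, 41 probe sets were higher, 64 lower, 8 list members called, 69 called in both treatments and 15 passed in the interaction; of the plastid-encoded transcripts, 21 were higher at an unadjusted p under 0.05 and 1 at the adjusted one. The labels do not say that the numbers mark shared cultures, and the deviations of same-numbered mock arrays correlated at 0.082, 0.336 and 0.392, the first of them under 0.1, so the numbers were not taken to pair the samples. The data hold hints of pairing: 6 of 6 mock arrays correlated best with their own number in the other genotype, as did 23 of 36 over all pairs of groups, and ire1a ire1b arrays under tunicamycin correlated with the same-numbered ones under mock at 0.112, 0.444 and 0.507, whereas ire1a ire1b and wild-type arrays under tunicamycin did at -0.095, -0.005 and 0.025. Of the 66 probe sets called, 35 were among the 42 called with only the mock arrays, 46 among the 52 without a filter, 49 among the 50 after quantile normalization and 66 among the 105 with the block. Differences of dim probe sets, whose wild-type or ire1a ire1b signals lie near 68.7, have an uncertain size.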

Other observations

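Plastid-encoded transcripts, which are made by plastid RNA polymerases, were measured with 66 probe sets. Under mock 50 of them had differences above 0 (ire1a ire1b minus wild type) and 16 below, with a median of 0.15, while 0 passed the adjusted threshold in limma and 11 had an unadjusted p under 0.05, all above 0. That number was 5 without wild-type mock array 3, 6 (and 1 more below 0) without ire1a ire1b mock array 1, 7 without wild-type mock array 2, and it was 19 when wild-type mock array 1 was left out. Their median was closest to 0 in the fits lacking ire1a ire1b mock array 1 (0.08) or wild-type mock array 3 (0.10). The largest was psbN, of photosystem II assembly, at 1.22 ± 0.28 (adjusted p = 0.101). The median log2 signal of the list was 12.08, 11.98 and 11.81 on the ire1a ire1b mock arrays, against 11.94, 11.82 and 11.60 on the wild-type mock arrays (difference 0.17, exact permutation test, two-sided p = 0.3, where the smallest possible is 0.1). The groups overlapped. The median difference under tunicamycin was -0.01.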
